A study of Mus musculus with 2 samples.

Results

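The shallow neuron-like droplets of the dorsal root ganglion (DRG) are barcodes with few captured transcripts, among which those of sensory neurons stand out. They were sought in 2 single-cell RNA-seq libraries, replicates 1 and 2, made from L4 and L5 DRGs of naive (uninjured) female C57BL/6 mice aged 3 months. Both replicates have the same genotype, age and condition, so nothing was compared between treatments. The study calls them biological replicates, and how many mice were pooled for each library is not given in the sources used here. The cells were dissociated with papain and collagenase and sorted as live single cells with a viability dye before they were loaded on the 10x Chromium system. Each captured transcript carries a droplet barcode and a unique molecular identifier (UMI), and replicates 1 and 2 total 119101743 and 128668771 UMIs. A barcode was taken as a member if it had over 300 detected genes, 500 to 3000 UMIs, a mitochondrial share of up to 22%, and at least 6 UMIs and at least 50 per 10000 UMIs over 7 neuronal genes: *Prph*, *Stmn2*, *Uchl1*, *Tubb3*, *Nefl*, *Calca* and *Tac1*. This gave 363 members among the 2969761 barcodes with a UMI in both libraries, 281 in replicate 1 and 82 in replicate 2. They were set beside 96 deep neurons (51 and 45), which have at least 20000 UMIs and at least 40 per 10000 over the same 7 genes, beside 1669 other shallow barcodes (654 and 1015), which pass the same limits but not the rule on neuronal genes, and beside empty droplets, the 45001 barcodes per library ranked 45000 to 90000 by UMIs. The members were thus chosen by these 7 genes, the depth, the number of genes and the mitochondrial share, so their values below are descriptions and carry no test.

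DRG neurons are pseudounipolar: a large soma sends one process that splits into a peripheral and a central axon. Most of the RNA of such a neuron lies in the cytoplasm of the soma, while unspliced transcripts and several long noncoding RNAs stay in the nucleus. The small neurons are commonly divided into peptidergic nociceptors, which make the neuropeptides of *Calca* and *Tac1*, and non-peptidergic nociceptors, marked by *Mrgprd*, *Cd55* and *P2rx3*. Droplets of a dissociated tissue also capture RNA that floats free in the suspension, which the empty droplets measure.

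Barcodes that occur in both libraries have to be described first, because they make up a large part of the members. Among barcodes of at least 500 UMIs, 147 had at least 500 UMIs in both libraries, out of 9530 in replicate 1 and 9821 in replicate 2. Among the members it was 68 of 281 (24.2%) in replicate 1 and 69 of 82 (84.1%) in replicate 2, and among the other shallow barcodes 19 of 654 (2.91%) and 23 of 1015 (2.27%). These 137 members are called shared-barcode droplets below. At the other end, 205 members of replicate 1 and 13 of replicate 2 had under 50 UMIs at the same barcode in the other library, and they are called own-library droplets. The remaining 8 members, all of replicate 1, had 50 or more but under 500 there. The limits of 50 and 500 were chosen after the data were seen.

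**Figure D1:**
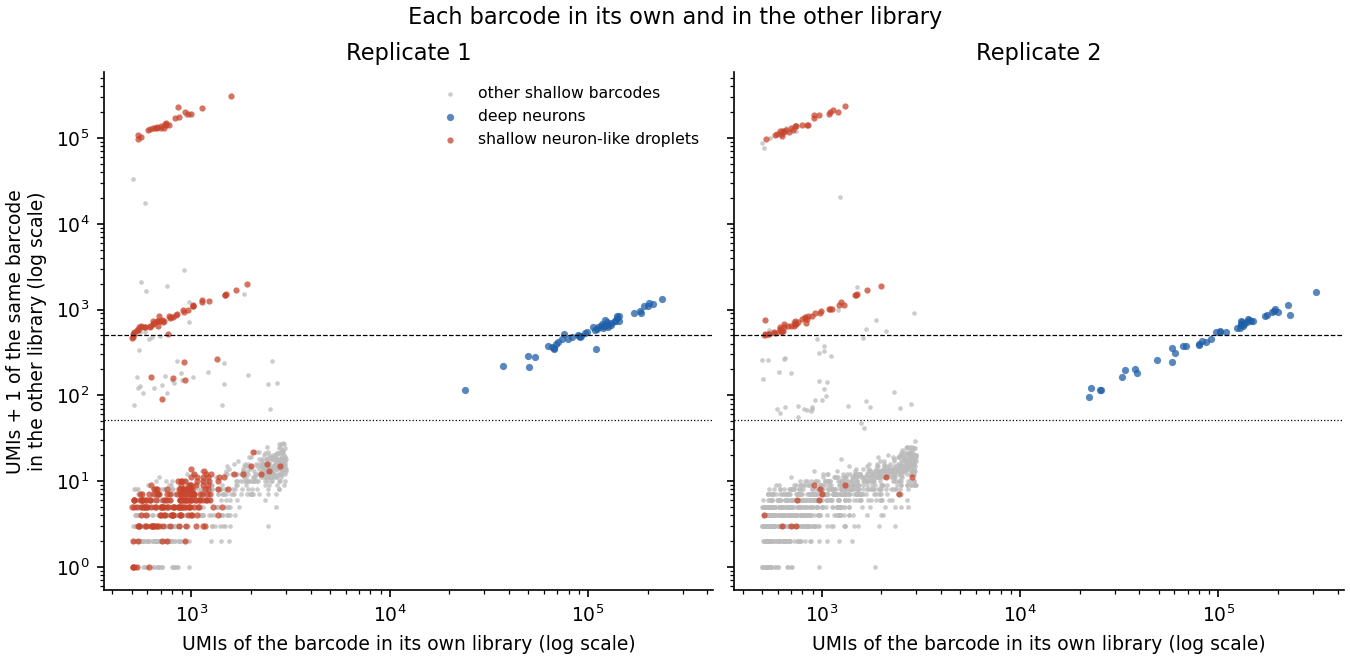
UMIs of each barcode in its own library (x axis, log scale) against UMIs + 1 of the same barcode in the other library (y axis, log scale) for shallow neuron-like droplets (red), deep neurons (blue) and other shallow barcodes (grey) of replicate 1 (left) and replicate 2 (right), with the limits of 50 (dotted) and 500 (dashed). Members fall mostly into 3 bands: 24 and 25 whose barcode has at least 20000 UMIs in the other library, 44 in each replicate with 500 to 3000 there, and 205 and 13 with under 50.

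The shared-barcode droplets were of 2 kinds. For 24 members of replicate 1 the same barcode was a deep neuron of replicate 2, of 97927 to 311121 UMIs, and for 25 members of replicate 2 it was a deep neuron of replicate 1, of 97131 to 237233 UMIs. The shallow copy held between 0.374% and 0.561% of the UMIs of its deep partner in the first case and between 0.496% and 0.601% in the second. Of the genes detected in the shallow copy, a median of 99.3% in replicate 1 and 99.0% in replicate 2 were also detected in the deep partner, against 93.2% and 93.6% in the other deep neurons of that library. The ranges overlapped: the lowest share in a partner was 98.3% and 97.9%, and the highest in another deep neuron 99.4% and 98.8%. Depth enters this comparison too, since the other deep neurons went down to 22210 and 24019 UMIs. When each copy was matched by likelihood to every deep neuron of the other library, the best match was the partner with the same barcode for 24 of 24 copies (45 candidates) and for 25 of 25 copies (51 candidates). Followed into the other library, deep neurons had a median of 0.542% (replicate 1) and 0.505% (replicate 2) of their UMIs there. The medians of the other barcodes of at least 20000 UMIs were 0.560% and 0.524%, with highest shares of 61.1% and 163.6%.

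For the second kind, 44 members of each replicate had 500 to 3000 UMIs at the same barcode in the other library. Of these, 43 barcodes passed the rule in both libraries at once. Their UMIs were close to equal on both sides, from 507 to 1903 in replicate 1 and from 516 to 2004 in replicate 2, with a ratio of replicate 2 to replicate 1 between 0.684 and 1.21 and a median of 1.05. Across these 43 barcodes the log10 UMIs of both libraries had a Pearson r of 0.972, a description of points that share their barcodes. Matched by likelihood among each other, 6 of 43 found their own partner in one direction and 5 of 43 in the other, with a median of 24.6% and 23.9% of genes in common. Both sides of these pairs were shallow, and the match smoothed each candidate over all genes. It therefore has far less power than the match to deep neurons and cannot decide whether a pair shares a cell. What produced either kind was not tested, and the shared-barcode droplets are not independent of the deep neurons or of each other, so the fits are given with and without them, and levels for own-library and shared-barcode droplets apart.

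Of the 12 neuronal markers used to check the label, 5 are genes of the rule, so only the other 7 bear on it: *Fxyd2*, *Isl1*, *Snap25*, *Rtn1*, *Gap43*, *Elavl4* and *Scn9a*. All 7 were above the level of the empty droplets in the members of both replicates, and 2 of 7 (replicate 1) and 4 of 7 (replicate 2) were among the 100 genes with the highest ratio to empty droplets. Among the own-library droplets 7 of 7 were above in replicate 1 and 6 of 7 in replicate 2, where *Isl1*, a transcription factor of sensory neurons, had 0 of 15942 UMIs and was not detectable at this depth. Among the first 100 genes were 2 of 7 and 1 of 7 in own-library droplets of replicates 1 and 2, and 2 of 7 and 5 of 7 in shared-barcode droplets. The members nearest the limit had 77.4, 84.2 and 88.2 UMIs of the 7 genes per 10000 in replicate 1 and 66.4, 72.4 and 77.1 in replicate 2, and the nearest barcodes below the limit of 50 had 49.7, 49.4 and 45.8 and then 46.8, 46.8 and 46.4. Another 23 and 34 barcodes reached 50 per 10000, up to 96.2 and 99.6, and were left out for having under 6 UMIs of these genes. Members had a median of 850.0 UMIs and 611 genes in replicate 1 and 755.5 UMIs and 595 genes in replicate 2, while deep neurons had medians of 112897 and 109594 UMIs.

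Own-library droplets made up 25.2% of the 812 shallow barcodes with under 50 UMIs in the other library in replicate 1 (exact binomial 95% interval 22.3 to 28.4) and 1.34% of 969 in replicate 2 (0.716 to 2.28). With the shared barcodes the shares were 30.1% of 935 (27.1 to 33.1) and 7.47% of 1097 (5.99 to 9.19). All intervals cover counting error only, and the live-cell sort can set such shares. The low number in replicate 2 therefore leaves the own-library droplets close to a description of 1 library: they held 186834 UMIs in replicate 1 and 15942 in replicate 2.

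In replicate 1 the mitochondrial share, which the rule limits only at 22%, differed between the kinds of member. Its own-library droplets had a median of 0.780% mitochondrial UMIs (first quartile 0.441), and 170 of 205 were below 2%. Its shared-barcode droplets had a median of 4.91%, with none of 68 below 2%, and the deep neurons of the same library had 5.45%. In replicate 2 the 13 own-library droplets spread from 0.458% to 19.2% around a median of 4.58%, the shared-barcode droplets had 4.95% and the deep neurons 4.91%. Other shallow barcodes had medians of 6.88% and 3.89%, and 98 of 654 and 225 of 1015 of them were also below 2%.

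**Figure D2:**
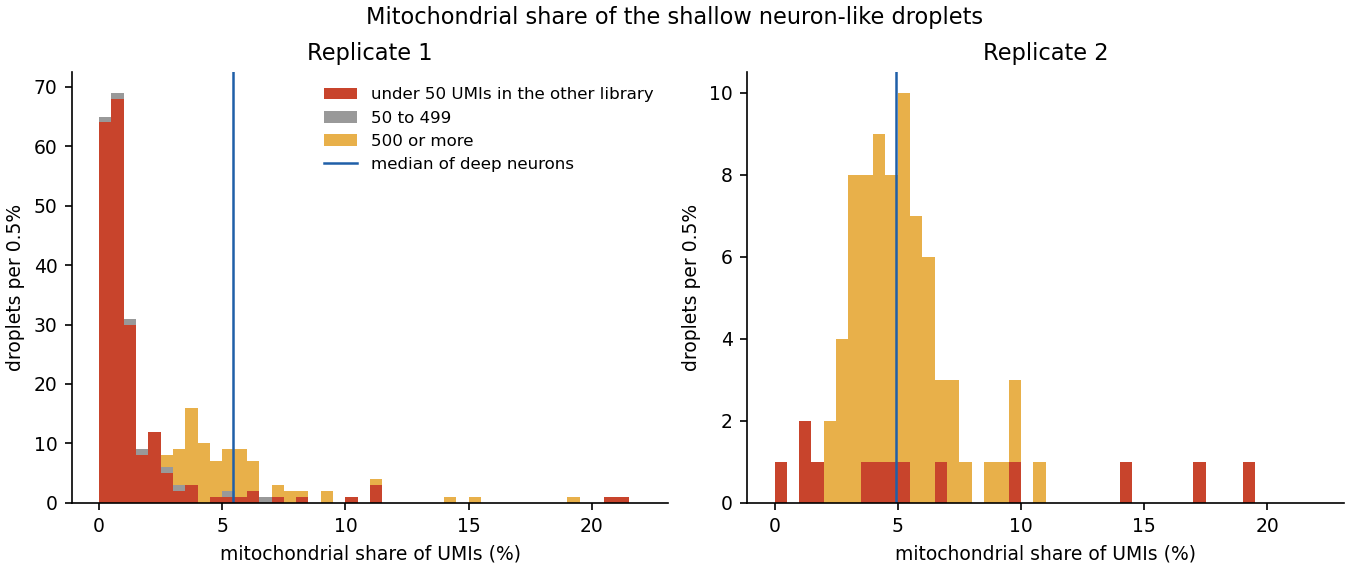
Number of shallow neuron-like droplets (y axis) per 0.5% of mitochondrial share of UMIs (x axis) in replicate 1 (left) and replicate 2 (right), coloured by the UMIs of the same barcode in the other library, with the median of deep neurons as a blue line. In replicate 1 the own-library droplets (red) crowd below 2% and the shared-barcode droplets (yellow) lie around the deep-neuron median of 5.45%.

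The own-library droplets of replicate 1 had high levels of several genes outside the rule. *Fxyd2*, a regulatory subunit of the sodium-potassium ATPase, stood at 8307 CPM (counts scaled to a common total of UMIs), against 1608 in the deep neurons and 516 in the empty droplets of that library. *Txn1*, the thioredoxin that reduces protein disulfides, stood at 8205 CPM against 820 in deep neurons and 567 in empty droplets. *Ly86*, which encodes a lymphocyte antigen, stood at 2066 CPM against 81.5 and 121, and *Tmem233*, a small membrane protein, at 1515 CPM against 209 and 34.3. All 4 genes were thus above both the deep neurons and the empty droplets of replicate 1. *Sncg*, which encodes gamma-synuclein, had 9233 CPM against 3122 in deep neurons, and *Tmsb4x*, the actin-sequestering thymosin, had 12070 CPM against 3904. The rule genes *Stmn2*, *Prph* and *Nefl* stood at 4817, 4437 and 3388 CPM, which their higher limit in the members than in deep neurons sets in part.

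These genes were spread over many droplets. After each droplet was thinned to 500 UMIs, *Ly86* was found in 61.0% of the own-library droplets of replicate 1 (exact binomial 95% interval 53.9 to 67.7; 74.6% unthinned at a median of 886 UMIs). At the same 500 UMIs it was found in 1.96% of deep neurons and in 2.29% of the other shallow barcodes (median 1065 UMIs). These were chosen for few neuronal genes, with rule genes at 25.8% of their empty-droplet level, so they may understate free neuronal RNA. *Fxyd2* was found in 91.7%, 17.6% and 7.19%, and *Txn1* in 91.7%, 25.5% and 13.8% of these 3 groups. Of the 153 own-library droplets with a *Ly86* UMI, 151 also had *Fxyd2*. Unthinned, *Fxyd2* was found in 196 of all 205 own-library droplets of replicate 1 (95.6%), so this overlap is near the share over all of them. Over all members of replicates 1 and 2 the thinned shares were 44.5% and 3.66% for *Ly86*, 76.2% and 36.6% for *Fxyd2*, and 76.5% and 40.2% for *Txn1*.

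The 13 own-library droplets of replicate 2 did not carry this set. There *Ly86* had 0 UMIs, *Txn1* 627 CPM, *Fxyd2* 1380 CPM and *Tmem233* 125 CPM, against 228, 1066, 2217 and 115 CPM in the deep neurons of that library. *Tac1*, the precursor of substance P, was at 3889 CPM and *Calca*, the precursor of CGRP, at 2321 CPM in these 13 droplets, and 9 of 13 held at least 2 UMIs of these genes summed. In replicate 1 it was 19 of 205, with *Calca* at 557 CPM and *Tac1* at 567 CPM, against 3864 and 2870 in the deep neurons. Only 3 own-library droplets of replicate 1 had at least 2 UMIs of *Ly86* and at least 2 of *Calca* and *Tac1* summed, out of 104 with at least 2 of *Ly86*.

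**Figure D3:**
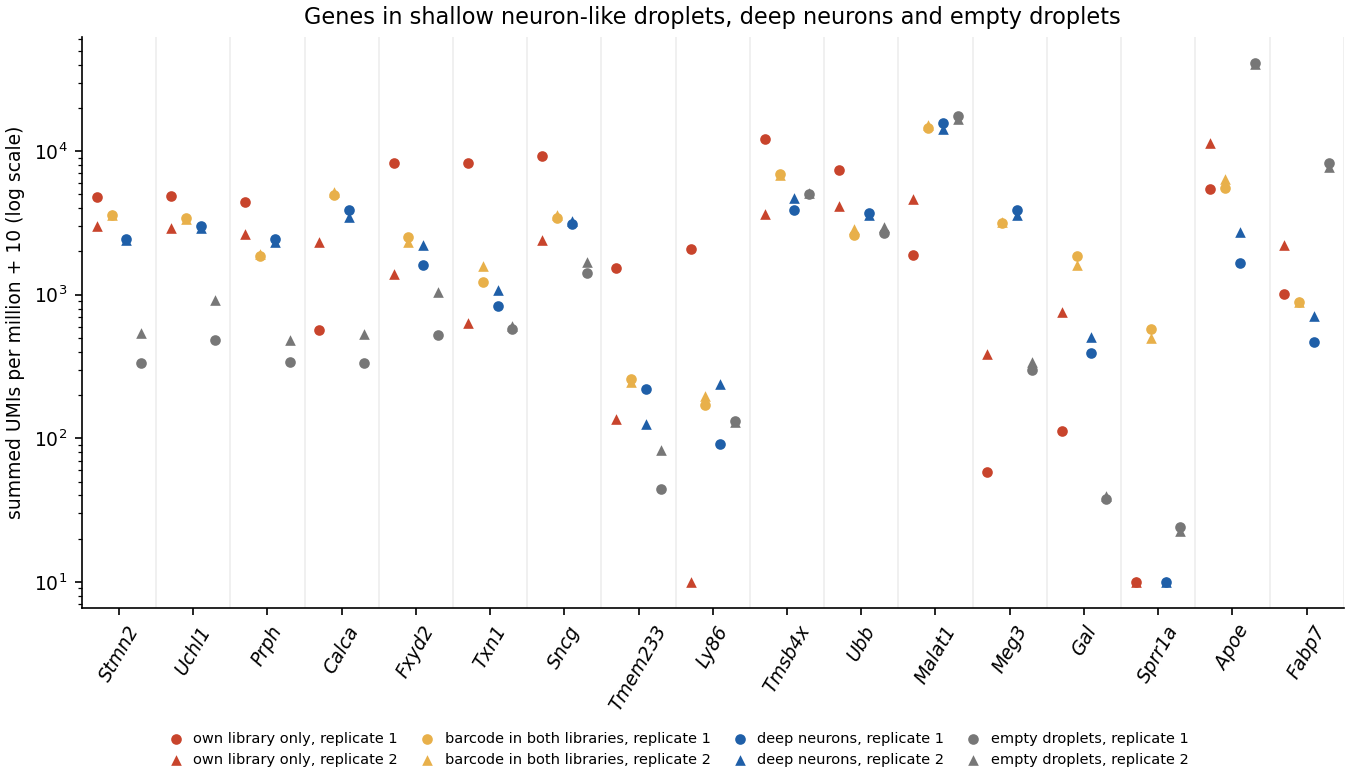
Summed CPM + 10 (y axis, log scale) of 17 genes in own-library droplets (red), shared-barcode droplets (yellow), deep neurons (blue) and empty droplets (grey), for replicate 1 (circles) and replicate 2 (triangles). Shared-barcode droplets lie near the deep neurons for most genes, while the own-library droplets of replicate 1 are high for *Fxyd2*, *Txn1*, *Tmem233* and *Ly86* and low for *Calca*, *Malat1* and *Meg3*, and *Sprr1a* has UMIs in the shared-barcode droplets and not in the deep neurons.

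Among the deep neurons *Ly86* was concentrated in few cells. *Mrgprd*, a receptor of non-peptidergic nociceptors, had UMIs in 2 deep neurons of each library, and these held 90.5% of the *Ly86* UMIs of all deep neurons in replicate 1 and 92.9% in replicate 2. The same neurons held 24.5% and 36.1% of the *Txn1* UMIs and 20.8% and 28.8% of the *Fxyd2* UMIs, which were found in most deep neurons. In replicate 1 their *Fxyd2* levels were 1402 and 8604 CPM, and in replicate 2 they were 12419 and 9775 CPM. *Mrgprd* itself had 8 UMIs in the own-library droplets of replicate 1 (42.8 CPM, against 7.73 in deep neurons) and 0 in those of replicate 2. Of the 12 listed genes of non-peptidergic neurons, 9 could be tested: edgeR called 1 higher over all members (0.706% of all genes tested were) and 3 higher over the own-library droplets (1.56% of all genes). *Cd55*, which restrains complement on the cell surface, had 685 and 565 CPM in the own-library droplets of replicates 1 and 2 against 117 and 156 in deep neurons (log2 fold change 2.06 ± 0.41 SE, edgeR adjusted p = 6.1e-05 from the fit across all genes, 2 samples a group). *Plxnc1*, a semaphorin receptor, had 289 and 188 CPM against 78.0 and 91.9. *P2rx3*, an ATP-gated channel, had 80.3 CPM against 19.8 in replicate 1 and 0 UMIs in replicate 2, and it was not called without the droplets of replicate 2. Over all members *Cd55* was not called with the replicate block.

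Over own-library droplets the calls among listed genes of other neuron types were lower ones. They are a description only, because many such calls passed the filter on low counts through the deeper classes. Of all 659 lower calls over own-library droplets, 551 had under 10 UMIs in each member profile. Of 8 peptidergic genes tested, 1 was called lower over all members (*Trpv1*, the capsaicin receptor, not called with the replicate block) and 4 over the own-library droplets (*Trpv1*, *Kit*, *Cartpt* and *Adcyap1*), where 1.0% and 5.17% of all genes were, with a median log2 fold change of -1.48. Without the 13 own-library droplets of replicate 2, 0 of the 8 were called. *Calcb*, the second CGRP gene, was at 519 and 502 CPM in own-library droplets against 221 and 225 in deep neurons and did not pass the test. *Th*, which marks low-threshold C-fibre mechanoreceptors, had 1 UMI in the own-library droplets of each replicate. It passed the filter on low counts only through the deeper classes, so its lower call there carries no test. *Zfp521* of the same neuron type was also called lower. Neither call was made without the own-library droplets of replicate 2. *Pvalb*, of proprioceptors, had 0 UMIs in the own-library droplets of both replicates, where deep neurons had 3.09 and 82.5 CPM. Its lower call carries no test either, because it too passed the filter only through the deeper classes. Moreover, 3 counts in the own-library droplets of either replicate alone would exceed the deep level there. The call was not made without the own-library droplets of replicate 2. *Spp1*, of the large fibre list, was called higher over all members on 11 and 5 UMIs.

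Nuclear noncoding RNA was scarce in the own-library droplets of both libraries. *Malat1*, one of the most abundant RNAs of nuclei, was at 1895 and 4642 CPM in replicates 1 and 2, against 15623 and 14294 in deep neurons, 14591 and 15080 in shared-barcode droplets and 17591 and 16625 in empty droplets. *Meg3*, an imprinted noncoding RNA of neurons, was at 48.2 and 376 CPM against 3903 and 3573 in deep neurons and 3143 and 3176 in shared-barcode droplets. These deep levels are those of all deep neurons together. The deep neurons with *Mrgprd* had *Meg3* at 3194 and 755 CPM in replicate 1 and at 212 and 260 CPM in replicate 2. Their *Malat1* was at 19555 and 5989 CPM and at 14628 and 7620 CPM. How much of the difference goes with the type of neuron was not tested. No *Meg3* UMI was found in 196 of 205 and 10 of 13 own-library droplets, but in only 13 of 68 and 8 of 69 shared-barcode droplets was it missing. The levels of *Malat1* in own-library droplets were thus below those of both deep neurons and empty droplets, in both replicates.

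edgeR called 8 of the 10 listed nuclear noncoding RNAs lower in own-library droplets than in deep neurons and 1 higher (*Neat1*), where 5.17% of all genes were called lower and 1.56% higher. This count is a description only, because 5 of the 8 had under 10 UMIs in the own-library profile of each replicate and passed the filter on low counts through the deeper classes. Without the own-library droplets of replicate 2 it called 4 lower (*Snhg11*, *Kcnq1ot1*, *Meg3* and *Rian*) and 0 higher, so that *Malat1* and *Neat1* did not pass, and without those of replicate 1 it called no gene. The list had a median log2 fold change of -3.22, or -2.75 with 2 genes of 0 UMIs set at their bound. The median over all 12748 genes tested was -0.34, or -0.12 with such genes at their bounds. *Meg3*, one of those 5, had 9 and 6 UMIs against 22708 and 18154 in deep neurons. *Malat1* had 354 and 74 UMIs and a log2 fold change of -2.73 ± 0.92 (SE, edgeR adjusted p = 0.0463). *Neat1*, whose RNA builds paraspeckles, had 23 and 1 UMIs, or 123 and 62.7 CPM, against 16.5 and 39.6 in deep neurons and 470 and 370 in empty droplets. Over all members 2 of 10 were called lower (*Miat* and, not with the replicate block, *Kcnq1ot1*), where 1.0% of all genes were, with a median of -1.20, and neither *Malat1* (log2 fold change -0.85 ± 0.60, adjusted p = 0.559) nor *Meg3* (-1.29 ± 0.57, adjusted p = 0.291) passed.

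Long genes were scarce in the same droplets. Genes that span at least 100 kb in the annotation made up 9.81% of non-mitochondrial UMIs in the own-library droplets of replicate 1 and 12.9% in those of replicate 2. The deep neurons had 23.4% and 23.4%, the shared-barcode droplets 20.4% and 19.5%, and the empty droplets 14.5% and 15.1%. The own-library droplets were the lowest of these 4 groups in both replicates, and all members together had 12.1% and 18.1%. *Cntnap2*, an adhesion protein of the axon at chr6:45059357-47304213 (plus strand, 2245 kb), had 42.8 and 62.7 CPM in own-library droplets against 1557 and 1132 in deep neurons, and 1018 and 1104 in shared-barcode droplets. *Rbfox1*, a splicing factor at chr16:5885355-7411526 (plus strand, 1526 kb), had 235 and 627 CPM against 2010 and 1841 in deep neurons. Of the genes that were high in replicate 1, short ones lie at chr9:45399669-45410278 (*Fxyd2*, plus strand, 10.6 kb), chr4:57943373-57956411 (*Txn1*, minus strand, 13.0 kb) and chr14:34370274-34374789 (*Sncg*, minus strand, 4.52 kb). Others are longer: *Tmem233* at chr5:116038755-116083244 (minus strand) spans 44.5 kb and *Ly86* at chr13:37345208-37419036 (plus strand) 73.8 kb. *Gm765*, a predicted gene called higher over all members, spans 107 kb. All positions are those of GENCODE M21 on GRCm38.

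**Figure D4:**
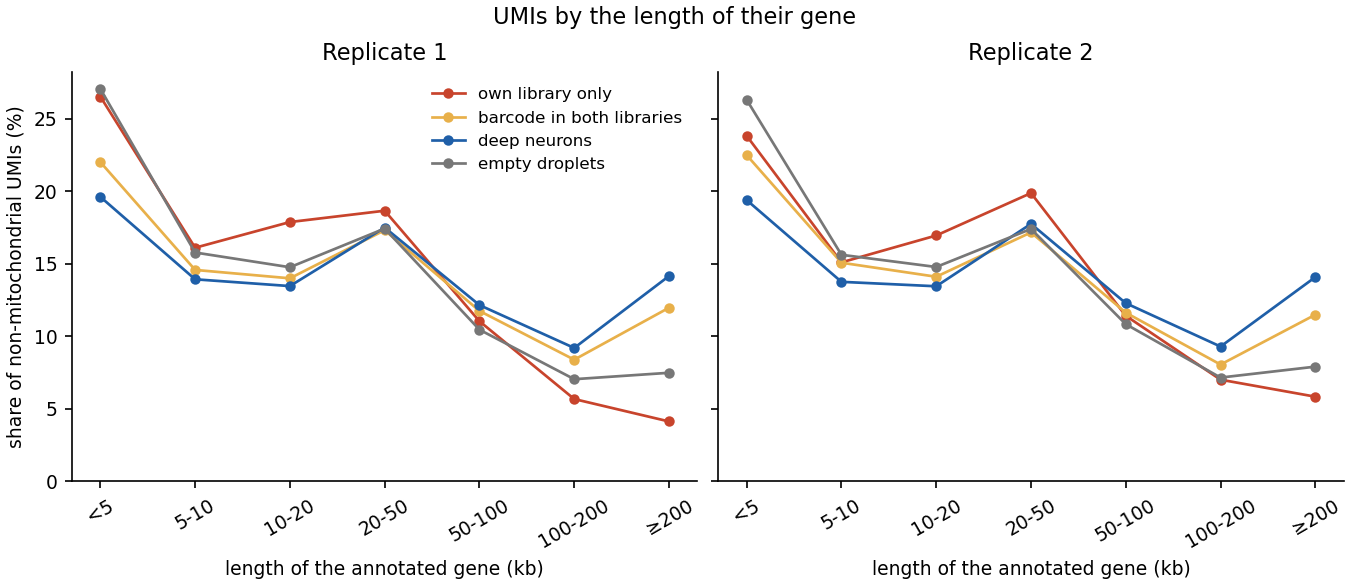
Share of non-mitochondrial UMIs (y axis, %) from genes of each length class (x axis, kb from start to end of the annotated gene) in own-library droplets (red), shared-barcode droplets (yellow), deep neurons (blue) and empty droplets (grey), for replicate 1 (left) and replicate 2 (right). In the class of at least 200 kb the own-library droplets have 4.13% and 5.84% against 14.2% and 14.1% in deep neurons.

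Across all genes, edgeR's quasi-likelihood test on counts summed per library called 90 of 12750 genes higher (0.706%) and 128 lower (1.0%) in all members than in deep neurons. With deep neurons thinned to the members' depths and held to their rule there were 0 calls (214 of 2442 genes at an unadjusted p under 0.05), and with only members and deep neurons in the fit there were 7 higher and 5 lower. Of the 128 lower genes, 114 span over 100 kb (89.1%), against 16.5% of all genes tested, and the median span was 316 kb against 26.5 kb. This is a description only, because 70 of the 128 had under 10 UMIs in each member profile and passed the filter on low counts through the deeper classes, and with a filter of 30 UMIs 16 lower calls were made. With only own-library droplets it called 199 of 12748 genes higher (1.56%) and 659 lower (5.17%), of which 508 (77.1%) span over 100 kb and 551 had under 10 UMIs in each member profile. These calls contain 81 of the 90 higher genes (90.0%) and 127 of the 128 lower ones (99.2%) found over all members. The overlap is no independent support, because own-library droplets are part of all members and both fits use the same deep neurons. With the replicate as a block the calls over all members were 33 higher (0.259%) and 26 lower (0.204%), without the members of replicate 1 there were 0 calls (523 genes at an unadjusted p under 0.05), and without those of replicate 2 there were 3 higher and 0 lower. Without the own-library droplets of replicate 2, the fit called 109 higher (0.855%) and 211 lower (1.66%), and without those of replicate 1 it called 0 (718 at an unadjusted p under 0.05). The 2 libraries are the only replicates, and p-values measure the spread between them.

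By the rule for naming genes, only 7 genes were called higher in all members with the same direction and at least 20 UMIs in both replicates. After *Sprr1a*, described below, came *Apod*, an apolipoprotein of glia and fibroblasts, with 169 and 388 CPM against 16.3 and 31.3 in deep neurons (log2 fold change 3.30 ± 0.38 SE, edgeR adjusted p = 3.49e-06). *Gm42418*, a predicted gene that overlaps ribosomal RNA sequence and whose counts are uncertain for that reason, had 2480 and 2178 CPM against 539 and 398. *Txn1*, *Mt1* (a metallothionein) and *Fez1* (an adaptor of kinesin transport) were also among them, with log2 fold changes between 1.58 and 2.10, but *Txn1* and *Fez1* were not called with the replicate block. *Ly86* was called too (log2 fold change 2.65 ± 0.54, adjusted p = 0.00966), although the members of replicate 2 held 147 CPM against 228 in its deep neurons, so that its sign is that of replicate 1. The lower genes with the largest fold changes included *Fam184a*, *Gfm1*, *Sdk2*, *Cdh18*, *Cntn5*, *Map2k5*, *Ralgapa2*, *C130073E24Rik* and *Rab11fip3*, each with 0 to 2 UMIs in either member profile. *Fam184a*, *Gfm1* and *Sdk2* had 0 UMIs in both, which makes them at least 3.37-fold, 3.29-fold and 3.14-fold lower than in deep neurons with a floor of 3 counts over the group. *Cdh18*, a cadherin, had 0 and 1 UMI against 481 and 442 in deep neurons. Of the lower genes named here, *Cdh18*, *Ralgapa2* and *C130073E24Rik* were also called with the replicate block, and the others were not.

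Among own-library droplets, 1 gene passed the same rule as higher, *Gm42418* (2992 and 8845 CPM against 539 and 398), and 615 as lower. These numbers follow from depth: a higher gene needed 20 UMIs in the 15942 UMIs of replicate 2, while a lower gene could pass through the deep neurons alone. The first 10 of these, *Fam155a*, *Ubn2*, *Ptprn2*, *Agbl4*, *Sbf2*, *Arhgef28*, *Unc79*, *Pcdh15*, *Syn3* and *Unc13b*, had 0 UMIs in both replicates. *Fam155a*, an auxiliary subunit of the sodium leak channel, was at 163 and 234 CPM in deep neurons, at least 13.2-fold above the floor of the own-library droplets, and *Unc13b*, a vesicle priming factor and the last of the 10, was at least 5.87-fold above it.

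Most listed genes of neuronal structure were not called. Over all members, 0 of 20 genes of the cytoskeleton and growth cone passed in either direction (median log2 fold change 0.13), and 0 of 23 synaptic and secretory genes (median -0.18). Of 20 genes of membrane excitability, *Tmem233* was called higher and *Kcnd3* and *Trpv1* lower (neither with the replicate block). In that fit 0.706% of all genes were called higher and 1.0% lower. Of 12 neuronal transcription and RNA-binding genes 0 were called, with 11 below 0 (median -0.60). Over own-library droplets the lower calls were *Map2*, *Gap43* and *Tagln3* of the first list, *Adcyap1* of the second, *Kcnd3*, *Cacna2d1*, *Fxyd7* and *Trpv1* of the third, and *Rbfox1* and *Celf4* of the fourth, and the higher calls *P2rx3* and *Tmem233*, where 5.17% and 1.56% of all genes were called. Without their replicate 2, *Tagln3*, *Adcyap1*, *Kcnd3*, *Fxyd7*, *Trpv1* and *P2rx3* were not called, while *Mapt* and *Elavl4* were called lower and *Fxyd2* higher. *Gap43*, the growth-cone protein, had 74.9 CPM in replicate 1 and 627 in replicate 2 against 535 and 508 in deep neurons, so its own-library droplets lay on both sides of the deep neurons. *Snap25*, of the presynaptic fusion machinery, had 546 and 878 CPM against 876 and 936. Ribosomal protein genes were not called in either fit (0 of 81, median 0.24 over all members and 0.04 over own-library droplets), nor were 16 abundant cytoplasmic genes (medians 0.33 and 0.14).

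*Sprr1a*, a small proline-rich protein known from injured and regenerating neurons, was found in few members, and its call over all members is no independent test, since the same barcodes supply both replicates. It had 32 UMIs in 5 members of replicate 1 and 29 UMIs in 6 members of replicate 2, and 0 UMIs in the deep neurons of either replicate. All 11 droplets were shared-barcode droplets: 5 barcodes had *Sprr1a* in both libraries and held 60 of its 61 UMIs. The own-library droplets had 0 UMIs of *Sprr1a*, and the empty droplets 14.2 and 12.7 CPM. The droplets with over 1 *Sprr1a* UMI also held 67 of 103 and 61 of 94 UMIs of *Gal*, the neuropeptide galanin, found in shared-barcode droplets. *Gal* was at 1840 and 1596 CPM in shared-barcode droplets, 102 and 753 in own-library droplets and 381 and 496 in deep neurons, and was not called (adjusted p = 0.301 over all members). Every *Sprr1a* UMI of the members thus lay in a barcode present in both libraries, and no deep neuron held one.

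RNA of other cell types was present at a fraction of its level in the empty droplets. The 12 satellite glia genes summed to 7873 and 16748 CPM in own-library droplets, 7626 and 8559 in shared-barcode droplets, 2846 and 4414 in deep neurons, and 58934 and 57069 in empty droplets, with *Apoe* the most abundant in each. Over all members that was 13.2% and 18.1% of the empty level, and 0 of 12 were called, where 0.706% of all genes were called higher. Of the 12, 11 lay above 0 with a median log2 fold change of 0.87, which turned to -1.11 when the empty-droplet profile was subtracted. The amount subtracted from each class was set by counting all RNA of 9 myelinating Schwann genes as free, with the shares given below. That setting fixes how much glial RNA is left in the members, so the turn carries no test. Over own-library droplets 1 was called higher, *Bcan*, a brain proteoglycan, with 14 and 1 UMIs (median 0.98), where 1.56% of all genes were. The 10 genes of myelinating Schwann cells summed to 1258 and 1505 CPM in own-library droplets against 422 and 552 in deep neurons, and 3 of 8 tested, *Prx* and *Mbp* among them, were called higher in each fit, against the same 0.706% and 1.56% of all genes, although *Prx* had 5 and 0 UMIs in own-library droplets, and of the named genes only *Mbp* passed without their replicate 2 and neither passed over all members with the replicate block. If all RNA of 9 of these genes (*Pmp22* left out) were free RNA, free RNA would make up 13.4% and 13.5% of the members' UMIs and 3.36% and 4.71% of the deep neurons'. The 8 macrophage and leukocyte genes, of interest because *Ly86* is also an immune gene, had 16 UMIs (85.6 CPM) in own-library droplets of replicate 1 and 1 UMI in replicate 2, led by *Cd74*, with 3 and 7 of the 8 at 0, against 1131 and 1046 CPM in empty droplets. Endothelial genes had 4 and 0 UMIs with 6 and 7 of 7 genes at 0, mural genes 18 and 2 UMIs led by *Tagln* and *Rgs5*, fibroblast genes 99 and 17 UMIs led by *Dcn*, and haemoglobin genes 27 and 2 UMIs. Genes of these lists called higher over own-library droplets were *Cd74*, *Hbb-bs*, *Col3a1*, *Lum*, *Tagln* and *Notch3*, again where 1.56% of all genes were. Of these only *Hbb-bs*, with 19 and 0 UMIs, passed without replicate 2. *Rgs5* of the mural list was called lower, where 5.17% of all genes were, but not without replicate 2. The part of these lists in the other differences was not tested. Non-myelinating Schwann genes, several of which neurons also use, were at 316 and 1443 CPM against 1147 and 1049 in deep neurons. Of 5 tested, *Cadm2* and *Gfra3* were called lower over own-library droplets, and *Cadm2* was not without replicate 2. When the empty-droplet profile was subtracted, 9 genes were called higher and 5 lower over all members.

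Of 17 stress and immediate early genes, 2 were called higher over all members (*Nr4a1* and *Egr1*) and 3 over own-library droplets (*Junb*, *Nr4a1* and *Ier3*), with medians of 0.68 and 0.52, where 0.706% and 1.56% of all genes were called higher. With the replicate block 1 was called over all members (*Nr4a1*), and without own-library droplets of replicate 2 only *Junb* was. *Nr4a1*, an orphan nuclear receptor, had 19 and 0 UMIs in own-library droplets, so its direction there is that of replicate 1. Their summed level was 6134 and 4830 CPM in own-library droplets, 3931 and 3598 in deep neurons and 11081 and 11448 in empty droplets.

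A low mitochondrial share was also found in barcodes between 3000 and 20000 UMIs. Among the 11 and 13 intermediate neuron barcodes, 5 in replicate 1 and 1 in replicate 2 had a share under 0.3%, a limit chosen after the values were seen. The 5 had 4543 to 9507 UMIs, 0 to 6 UMIs of *Malat1*, at most 1 of *Meg3*, at most 2 of *Ly86* and 30 to 164 of *Calca*. The barcode of replicate 2 had 10645 UMIs, with 2 of *Malat1*, 0 of *Ly86* and 0 of *Calca*. Low *Malat1* thus also occurred in barcodes rich in *Calca*, which the own-library droplets of replicate 1 mostly lacked.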

How the data were processed

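Per the submitters' processing notes, reads were aligned to mm10 and counted with Cell Ranger 7.1.0; the authors deposited unfiltered matrices of UMI counts per gene and barcode, with no normalization. Totals were 119101743 and 128668771 UMIs. The members and gene lists were chosen with earlier results of these data known. No doublets were called or removed. Counts were summed per replicate and class (members, intermediate neurons of 3000 to 20000 UMIs, deep neurons) and tested with edgeR 4.0.16 (quasi-likelihood, TMM, genes reaching 10 UMIs in 2 profiles or more, Benjamini-Hochberg adjusted p up to 0.05) in R 4.3.3. Rule and mitochondrial genes were not tested. CPM is a gene's count scaled to a common total per summed profile. Named genes were the 10 largest log2 fold changes in each direction with the same sign in both replicates and at least 20 UMIs in each replicate of the higher class, and listed genes that carry a comparison. Gene lengths came from GENCODE M21 (GRCm38). Shares were taken after thinning to 500 UMIs, with exact binomial intervals of 95% that cover counting error only. Bounds used a floor of 3 counts over the group. The study calls the samples biological replicates, and the labels do not tie them to animals, so p-values measure the spread between these 2 samples. All classes of a replicate come from its library, and the replicate block pairs them. The replicate differences of members and deep neurons had a correlation of -0.02 across 1052 genes. The alternatives covered DESeq2 1.42.0, other scalings and count filters, the replicate block, each replicate left out, other limits on members and deep neurons, thinned deep neurons, and subtraction of empty-droplet RNA. The count script was checked on simulated data. Some named genes are not reported here.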

Additional observations from a re-analysis of the deposited data

How the results depend on the processing

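Over all members edgeR called 90 genes higher and 128 lower than in deep neurons. The higher count became 29 at 30 UMIs or more, 7 with only members and deep neurons in the fit, 52 for members of 1000 to 3000 UMIs, 150 when chosen without Calca and Tac1, 144 with deep neurons at 100 or more per 10000, 0 with thinned deep neurons (214 of 2442 genes at an unadjusted p under 0.05) and 9 after subtraction of empty-droplet RNA. Under the same settings where the lower count moved, it became 16, 5, 345, 261, 0 and 5, the deep-neuron limit per 10000 aside, and it was 44 with DESeq2, 74 with DESeq2 size factors, 369 with no filter, 260 with empty droplets and other shallow barcodes in the fit, and 265 with deep neurons of at least 10000 UMIs. With the replicate block the counts were 33 and 26. Leaving out 1 replicate of a class gave 0 to 3 higher and 0 to 0 lower genes, with 205 to 2167 genes at an unadjusted p under 0.05. With own-library droplets, an alternative chosen after the data were seen, the counts were 199 and 659, the noncoding RNA median moved from -1.20 to -3.22, and members fell to 218. The satellite glia median of 0.87 became 0.30 for members of 1000 to 3000 UMIs, of which there were 95, 0.44 with thinned deep neurons and -1.11 after subtraction. Members numbered 82 to 281 with 1 replicate left out. Unthinned, the shares with Ly86 and Malat1 were 74.6% and 75.6% in place of 61.0% and 57.1%. Ly86 reversed from 2.65 to -0.21 without the members of replicate 1 and to -0.77 without replicate 1, and was 4.28 without replicate 2. The cause of these moves was not tested. Deep neurons with a mitochondrial share up to 22%, also chosen after the data were seen, gave 89 and 120 calls. Member depth, a median of 850.0 and 755.5 UMIs, limits all single-gene values.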
